A study of Mus musculus with 12 samples.

Results

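Oxidative phosphorylation (OXPHOS) uses 5 protein complexes of the inner mitochondrial membrane, and 97 of the 54119 genes measured in mouse cerebral vessels match the naming of their subunits. The genes were taken by name from the 21806 protein-coding genes: Ndufa, Ndufb, Ndufc, Ndufs and Ndufv with a digit, Sdha to Sdhd, symbols starting with Uqcr, Cox4 to Cox8 and Atp5, and the protein-coding genes with the prefix mt-. Ndufa4l2 was left aside by that rule. Of the 97 genes, 84 lie in the nucleus and 13 on the mitochondrial DNA (mtDNA). The rule reads names alone, so it takes in a second Atp5o model and factors such as Atp5s and Cox7a2l. It was set with earlier results of these data known.

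The samples were cerebral vessels isolated from the forebrain of wild-type C57BL6 mice aged 2 to 3 months. Mice received PBS, or LPS, a bacterial endotoxin, by intraperitoneal injection at 10 mg/kg for 15 min, 30 min or 4 h. Each of the 4 groups had 3 libraries, and each library pooled vessels of 1 male and 1 female mouse. LPS 15 min, LPS 30 min and LPS 4 h were each compared with the same 3 PBS libraries.

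Complex I (NADH dehydrogenase, Nduf and mt-Nd genes) and complex II (succinate dehydrogenase, Sdh genes) pass electrons to ubiquinone, complex III (cytochrome bc1, Uqcr genes and mt-Cytb) passes them to cytochrome c, and complex IV (cytochrome c oxidase, Cox genes and mt-Co) passes them to oxygen. Complex V (ATP synthase, Atp5 and mt-Atp genes) makes ATP from the proton gradient. Complexes I, III, IV and V need subunits from both genomes, whereas complex II is wholly nuclear. The mtDNA is transcribed from both strands as long precursors by the polymerase Polrmt with the factor Tfam, and the transcripts are cut apart at the tRNAs between them. Brain endothelial cells are known for a high content of mitochondria. The complexes hold 35 nuclear and 7 mt-encoded members (I), 4 nuclear (II), 8 and 1 (III), 19 and 3 (IV) and 18 and 2 (V). Ndufa4, named as a complex I gene, was counted with complex IV, where its protein is known to sit.

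Depth was 18309200 to 25882000 fragments per library. Marker genes, summed as TPM (transcripts per 1000000, a level per length), showed endothelium together with other tissue. Over 8 endothelial genes the sum was 9877 to 10077 in PBS and 3890 to 3939 at LPS 4 h, with no marker at 0. Choroid plexus markers, led by Ttr, held 16670 to 17370 in PBS and 5 red cell markers 9737 to 10963 in PBS and 16270 to 17086 at LPS 4 h. Neutrophil markers summed to 12.2 to 16.7 in PBS and 578 to 601 at LPS 4 h, with Ly6g at 0 in PBS. Libraries of a group were close to each other: over the 12 pairs of libraries within groups, the spread of gene counts (a variance, from the median over genes) was 2.18 to 2.97 times that of counting error. The pancreatic gene Gp2 was listed at 7.29, 7.88 and 8.37 TPM in the LPS 15 min libraries and at 0, 0.222 and 0.0652 at LPS 4 h, and at 0 in PBS and LPS 30 min. Xist, transcribed in females, was at 38.5 to 53 TPM in PBS and 2.03 to 3.54 at LPS 30 min, against 63.2 to 90.6 and 97.5 to 102 for 4 summed Y-linked genes, so the balance of these genes moved with the groups. The p-values below therefore measure the spread between these libraries, which may be partly technical, and the part of sex and of other tissue in the results was not tested. In bulk RNA, a change in cell numbers and a change in RNA per cell cannot be told apart.

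Mitochondrial genes are packed end to end, and some share bases, which bears on how well their reads can be assigned. The longest overlap joins the genes of both complex V subunits, mt-Atp8 and mt-Atp6. It is printed with the 43 shared coding bases in capitals, from the GENCODE M21 transcripts of GRCm38, plus strand, chrM:7919-7977:
mt-Atp8/mt-Atp6: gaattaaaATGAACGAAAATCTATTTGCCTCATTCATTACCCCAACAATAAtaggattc
The complex I genes mt-Nd4l and mt-Nd4 share 7 bases (chrM:10159-10181, plus strand, shared bases in capitals):
mt-Nd4l/mt-Nd4: ctactacaATGCTAAaaattatt
The genes mt-Nd5 and mt-Nd6 overlap tail to tail by 14 bases from opposite strands (chrM:13544-13573, plus strand, shared bases in capitals), and mt-Nd6 is the 1 member transcribed from the other strand:
mt-Nd5/mt-Nd6: atactcaaTTAATCTCGAGTAAtctcgata
The libraries did not keep strand, so reads of mt-Nd6 and reads of RNA from the opposite strand cannot be told apart. The annotated mt-Atp8 transcript of 204 bases left an effective length of 19 bases after the fragment length was taken off. Its TPM of 97426 ± 3985 (SD, n = 3) in PBS was set largely by that divisor. Levels of single mt- genes are therefore given as the normalized counts of the authors, and compared within a gene only.

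The 13 mt-encoded genes held a larger share of the RNA at LPS 30 min and 4 h than in PBS, and the 84 nuclear genes a smaller one at 4 h. These sums over chosen genes are given per library, with no test. In PBS the mt-encoded genes held 6.26%, 6.23% and 6.39% of the fragments of the 3 libraries. They held 5.65%, 5.75% and 5.89% at LPS 15 min, 7.44%, 7.45% and 7.82% at LPS 30 min and 9.06%, 9.29% and 9.03% at LPS 4 h. No group overlapped another: the share was lowest at 15 min and highest at 4 h. The nuclear genes held 0.708%, 0.716% and 0.688% in PBS, 0.647%, 0.648% and 0.646% at LPS 15 min, 0.678%, 0.675% and 0.688% at LPS 30 min and 0.432%, 0.419% and 0.426% at LPS 4 h. Here the 4 h libraries stood lowest, and the highest library at 30 min lay just above the lowest PBS library.

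**Figure D1:**
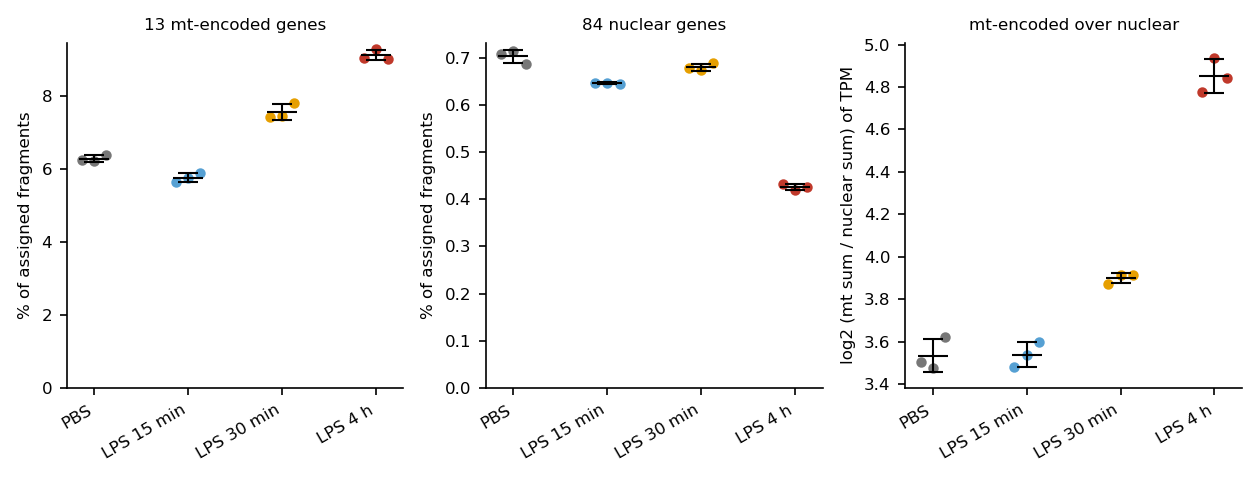
Share of assigned fragments (%) held by the 13 mt-encoded and the 84 nuclear genes and the log2 ratio of their summed TPM, by group; coloured points are libraries, black bars the mean ± SD (n = 3). The mt share spans 6.23% to 6.39% in PBS and 9.03% to 9.29% at LPS 4 h, the nuclear share 0.419% to 0.432% at 4 h, and the log2 ratio stands higher at LPS 30 min than in PBS and highest at 4 h.

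A ratio within a library does not depend on how libraries are scaled to each other. The summed TPM of the mt-encoded genes was 11.4, 11.1 and 12.3 times that of the nuclear genes in the PBS libraries and 11.2, 11.6 and 12.1 times at LPS 15 min. The ratio was 14.6, 15.1 and 15.1 at LPS 30 min and 27.4, 30.6 and 28.7 at LPS 4 h. On the log2 scale it spanned 3.48 to 3.62 (PBS), 3.48 to 3.60 (15 min), 3.87 to 3.92 (30 min) and 4.78 to 4.94 (4 h). PBS and 15 min overlapped, and 30 min and 4 h lay above both and apart from each other. In the normalized counts the log2 ratio spanned 3.13 to 3.21, 3.12 to 3.17, 3.46 to 3.50 and 4.40 to 4.46 in the same order of groups. Leaving aside mt-Atp8, mt-Nd4l and mt-Nd6 gave a difference in log2 ratio of TPM between LPS 4 h and PBS of 1.26, against 1.32 with all 13.

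Inside each complex that draws on both genomes, LPS 30 min stood above PBS and LPS 4 h above LPS 30 min in every library. From PBS to LPS 4 h the log2 ratio of mt-encoded to nuclear TPM went from 3.29 to 3.33 to 4.83 to 4.87 in complex I, which holds most of the mt-encoded genes. It went from 2.37 to 2.40 to 3.54 to 3.57 in complex III, from 2.98 to 3.28 to 4.13 to 4.30 in complex IV and from 4.21 to 4.39 to 5.45 to 5.73 in complex V. In PBS mt-Atp8 held 42.5% of all mt-encoded TPM and mt-Atp6 6.63%, so the complex V ratio mostly follows mt-Atp8 and its short effective length. The share of mt-Co2, of complex IV, was uneven (5.10% ± 1.94%, SD, n = 3). The ratios of single complexes were not computed without these genes. PBS and 4 h libraries did not overlap in any of these complexes. At LPS 30 min the mean ratio stood 0.33, 0.16, 0.29 and 0.43 above PBS for I, III, IV and V on the log2 scale. At LPS 15 min the ratio was 3.25 to 3.28 in complex I and 2.22 to 2.26 in complex III, below all PBS libraries, and that of complexes IV and V overlapped PBS.

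Single genes were tested with edgeR on counts summed per gene, in 1 quasi-likelihood fit of all 12 libraries with Benjamini-Hochberg adjusted p below 0.05 over the 19150 genes tested. The stricter call asks for a change beyond 1.5-fold, the other for any difference. All 13 mt-encoded and 81 nuclear members passed the filter on low counts. Cox8c, Cox7b2 and a second Atp5o model did not, and were listed at 0 TPM in every PBS library. Fold changes from this fit are relative to the trimmed mean of all genes. With library size alone as the scale, the median of all genes moved to -0.17 at LPS 30 min and -0.71 at LPS 4 h, and with TPM plus 1 to -0.23 and -0.62. In the fit the same medians were -0.01 and -0.01. On those scales many nuclear members turned from higher to lower.

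At LPS 4 h all 13 mt-encoded genes rose beyond 1.5-fold, against 19.1% of all genes tested. In all 13 every 4 h library was above every PBS library, against 35.9% of all genes. Their median log2 fold change was 1.24 (range 1.11 to 1.44), that of all genes -0.01. Scaled by library size alone the median was 0.53 with 3 genes beyond 1.5-fold, and on TPM plus 1 it was 0.38 with 0. Of all 19150 genes 1919 and 1299 rose beyond 1.5-fold on these scales in turn. At any difference 12 of the 13 were higher under both scales, all but mt-Co2, against 2988 and 2386 of the 19150 genes. Red cell markers were higher at all 3 times: the 5 genes had a median log2 fold change of 0.50, 0.89 and 1.59 in turn. The mt-encoded medians were -0.10, 0.40 and 1.24. In TPM the red cell sum was 9737 to 10963 in PBS, 14633 to 15489 at 15 min, 15571 to 16383 at 30 min and 16270 to 17086 at 4 h. The part of red cells in the mt-encoded rise was not tested. Choroid plexus markers moved in the fit as well: 4 of 5 were lower at 15 min and 5 of 5 higher at 30 min and at 4 h at any difference, with medians of -0.17, 0.43 and 0.63. Of all genes 18.2% were lower at 15 min, and 19.7% and 34.9% were higher at 30 min and 4 h. Their summed TPM was 16670 to 17370 in PBS, 14848 to 15784 at 15 min, 18105 to 18453 at 30 min and 14853 to 15917 at 4 h, and their part was not tested either.

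In complex IV, mt-Co1, the catalytic subunit of cytochrome c oxidase (chrM:5328-6872, plus strand), had 360071, 364528 and 353079 normalized counts in PBS. It had 330343, 335459 and 335684 at LPS 15 min, 490613, 492003 and 487229 at LPS 30 min and 848736, 834549 and 844518 at LPS 4 h. The groups did not overlap, with 15 min lowest and 4 h highest (log2 fold change 1.24, SE 0.011, adjusted p = 9.2e-25 beyond 1.5-fold for 4 h against PBS). mt-Co3, a core subunit of the same complex, had 110953, 110751 and 115546 in PBS and 253793, 268087 and 260211 at LPS 4 h (log2 fold change 1.20, SE 0.02, adjusted p = 1.6e-19 beyond 1.5-fold). mt-Co2, which takes electrons from cytochrome c, was uneven, with 53458, 53911 and 106623 in PBS, 79204, 90341 and 135955 at LPS 30 min and 135435, 192322 and 146859 at LPS 4 h. Its SE of 0.20 was the largest of the 13. A nuclear copy of mtDNA on chromosome 1, Gm28661, matches it over 681 bases at 100% identity, so the split of reads between them is uncertain. With the copy added, the counts were 131104, 135805 and 133269 in PBS, 122202, 122456 and 124221 at 15 min, 178496, 178353 and 185173 at 30 min and 301847, 307308 and 306712 at 4 h. The summed libraries of a group then lay close together, and the 4 groups did not overlap.

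In complex I, mt-Nd1, in the membrane arm next to the quinone site, had 88039, 88405 and 82697 normalized counts in PBS and 215567, 213647 and 211415 at LPS 4 h (log2 fold change 1.29, SE 0.023, adjusted p = 3.1e-19 beyond 1.5-fold). The membrane arm subunits mt-Nd2, mt-Nd4 and mt-Nd5 had log2 fold changes of 1.30, 1.24 and 1.39, and mt-Nd3 and mt-Nd4l of 1.11 and 1.25. mt-Nd6, encoded on the other strand, had 12421, 12709 and 14268 in PBS and 36028, 38658 and 37066 at LPS 4 h, the largest fold change of the 13 (log2 fold change 1.44, SE 0.026, adjusted p = 5.7e-20 beyond 1.5-fold). In complex III, mt-Cytb, the cytochrome b subunit, had 146805, 148324 and 143341 in PBS and 339703, 339117 and 333349 at 4 h (log2 fold change 1.20). In complex V, the proton channel subunit mt-Atp6 had 88492, 86836 and 102946 in PBS and 219926, 221920 and 220096 at 4 h, and with its nuclear copy Gm10925 added 102492, 105508 and 112927 and 239233, 248379 and 240888. Its accessory partner mt-Atp8 had a log2 fold change of 1.35. The nuclear copies of these genes lie side by side on chromosome 1 and match mt-Co1 in part, mt-Co2, mt-Atp6, mt-Co3 and mt-Nd3.

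At LPS 30 min all 13 mt-encoded genes were higher at any difference, against 19.7% of all genes, and 0 passed 1.5-fold. The median log2 fold change was 0.40. The call of mt-Co2 was lost in 8 of the 12 fits that left out 1 library, with a log2 fold change as low as 0.25 and adjusted p up to 0.37 (without LPS 30 min replicate 3, in edgeR), and that of mt-Nd6 without PBS replicate 1 or 2 or LPS 30 min replicate 1 (adjusted p = 0.051 to 0.069). The change was unequal along the mtDNA: 0.61 for mt-Atp8, 0.57 for mt-Atp6, 0.57 for mt-Nd3 and 0.54 for mt-Co3, but 0.14 for mt-Nd5 and 0.08 for mt-Nd6. Scaled by TPM plus 1 the last pair turned lower (-0.16 and -0.17), and by library size alone mt-Nd6 did (-0.08). At LPS 15 min 7 of the 13 were lower at any difference, against 18.2% of all genes, and 0 were higher. These were mt-Nd6 (-0.41), mt-Nd5 (-0.36), mt-Nd4 (-0.22), mt-Nd4l (-0.21), mt-Nd2 (-0.17), mt-Cytb (-0.17) and mt-Co1 (-0.07). The call of mt-Nd4l was lost without PBS replicate 1 or 2 (adjusted p = 0.073 to 0.074). mt-Nd3, mt-Co3, mt-Atp6 and mt-Atp8, at 0.10, 0.05, -0.02 and 0.02, did not pass. The plot of the mt-encoded genes in their order shows mt-Atp8 to mt-Nd3 above the genes that follow them at both early times. From 15 to 30 min the range was narrower (log2 fold change 0.45 to 0.61, 13 of 13 higher at any difference, against 19.2% of all genes).

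**Figure D2:**
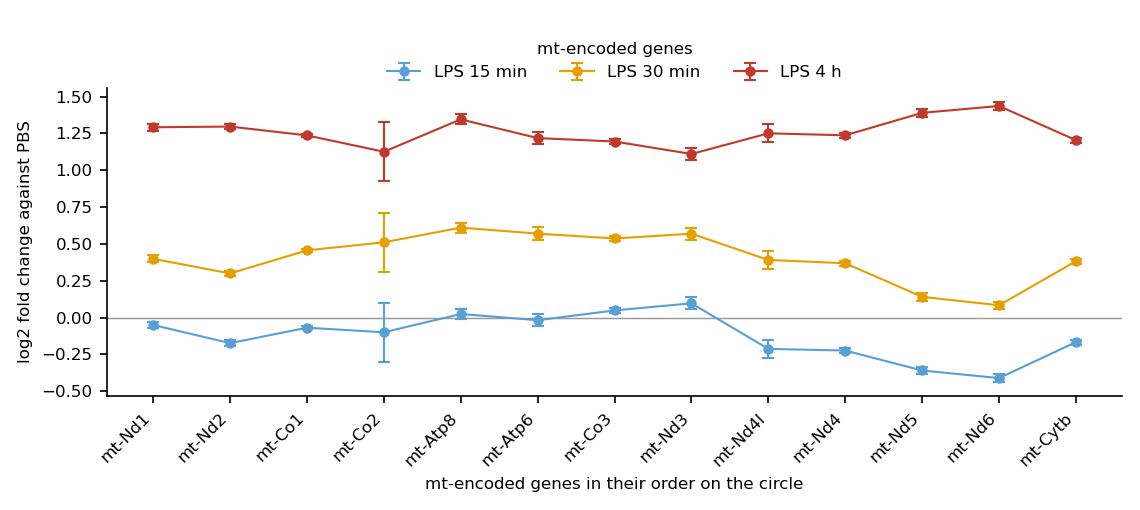
Log2 fold change against PBS of the 13 mt-encoded genes in their order on the mtDNA circle at 3 times after LPS; points are fitted values, bars ± SE (3 libraries a group, the same PBS libraries for each line). The 4 h line lies between 1.11 and 1.44, and mt-Nd5 and mt-Nd6 are lowest at 15 and 30 min and highest at 4 h.

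From 30 min to 4 h, 10 of the 13 rose beyond 1.5-fold in the fit, against 17% of all genes. The count was 2 by library size alone and 1 on TPM plus 1. Of all 19150 genes 8915 passed 1.5-fold in this step by library size, 1936 of them higher. On TPM plus 1, 6087 passed it, 1394 of them higher. mt-Nd6 (log2 fold change 1.35, SE 0.026, adjusted p = 5.4e-19) and mt-Nd5 (log2 fold change 1.25, SE 0.027, adjusted p = 2.8e-17) moved most in this step, being lowest of the 13 at 30 min and highest at 4 h. mt-Nd3, mt-Co2 and mt-Atp6, at 0.54, 0.61 and 0.65, did not pass 1.5-fold. The mitochondrial ribosomal RNAs, which precede mt-Nd1 on the mtDNA, are not members. mt-Rnr1, of the small subunit, had log2 fold changes of 0.38, 0.92 and 1.17 at the 3 times in turn. mt-Rnr2, of the large subunit, had 0.23, 0.79 and 1.32. Both passed any difference at all 3 times and 1.5-fold at 30 min and 4 h.

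The nuclear genes moved little at the early times. At LPS 15 min 2 of 81 were higher and 25 lower at any difference, against 20.4% and 18.2% of all genes, and 0 passed 1.5-fold in either direction, against 3.35% and 0.898% (median log2 fold change -0.08). At LPS 30 min 39 were higher and 3 lower, against 19.7% and 17.2%, and 0 fell beyond 1.5-fold, against 0.815%, with a median of 0.12. That direction depended on the scale: 4 were higher and 20 lower by library size, and 2 higher and 40 lower on TPM plus 1. All genes moved with these scales: of 19150, 9275 passed at any difference by library size, 2102 of them higher. On TPM plus 1, 9722 passed, 1274 of them higher. Short transcripts in general stood higher at 30 min in the fit, with a median of 0.12 over 1150 genes below 500 bases of effective length and -0.05 over 3303 genes above 4000 bases, and 69 of the 81 nuclear members were below 1000 bases. Cytosolic ribosomal protein genes, which are also short, had a median of 0.24, and 76 of 87 were higher. The part of transcript length was not tested. Without PBS replicate 3 the 39 genes higher at 30 min became 22, and without LPS 15 min replicate 1 the 25 lower at 15 min became 16. From 15 to 30 min 66 of 81 were higher and 0 lower at any difference, against 19.2% and 18.2% of all genes. By library size alone 22 were higher and 0 lower, and on TPM plus 1 5 were higher and 18 lower. Of all 19150 genes 8672 passed this step by library size, 2055 of them higher. On TPM plus 1, 9503 passed it, 1032 of them higher.

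At LPS 4 h the nuclear genes went both ways around a median of -0.10. At any difference 20 were higher and 35 lower, against 34.9% and 33.7% of all genes. Beyond 1.5-fold 1 was higher and 3 lower, against 19.1% and 13.9%. By library size alone 54 were lower beyond 1.5-fold and on TPM plus 1 62 were, with 0 higher on both. Of all 19150 genes 10523 passed 1.5-fold by library size, 1919 of them higher. On TPM plus 1, 8663 passed it, 1299 of them higher. At any difference 0 were higher and 79 lower by library size, and their median was -0.80 where that of all genes was -0.71. On TPM plus 1 the counts at any difference were the same, with medians of -0.94 for the members and -0.62 for all genes. Of all 19150 genes 15228 passed any difference by library size, 2988 of them higher. On TPM plus 1, 15102 passed it, 2386 of them higher. Without PBS replicate 3 the 20 genes higher at 4 h became 13. From 30 min to 4 h 4 nuclear genes fell beyond 1.5-fold, against 11.9% of all genes. By library size alone 50 did and on TPM plus 1 46. Of all 19150 genes 8915 passed 1.5-fold in this step by library size, 1936 of them higher. On TPM plus 1, 6087 passed it, 1394 of them higher.

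**Figure D3:**
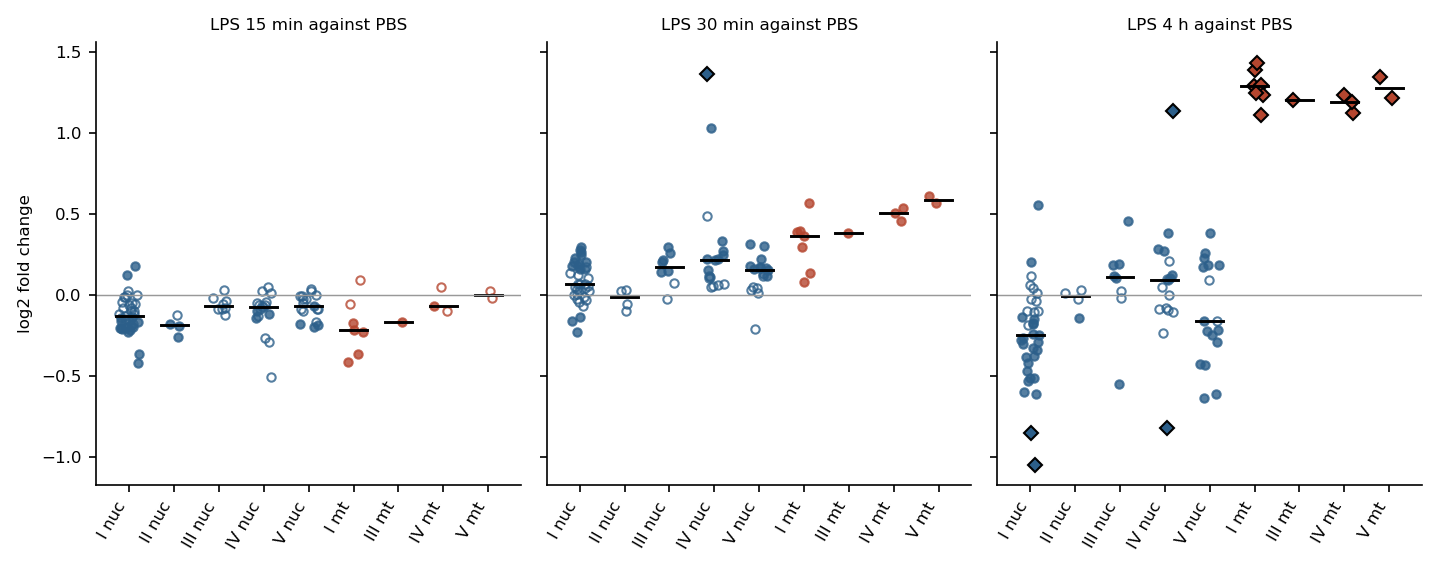
Log2 fold change against PBS of each tested member by complex, nuclear (nuc, blue) and mt-encoded (mt, red), at 3 times after LPS; filled points passed any difference, diamonds passed 1.5-fold, open points neither, and bars are medians. At LPS 4 h the 13 mt-encoded genes lie between 1.11 and 1.44 and nuclear complex I is centred at -0.24.

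In complex I, 23 of 35 nuclear genes were lower and 2 higher at LPS 4 h at any difference in the fit, against 33.7% and 34.9% of all genes (median -0.24). The same shares of all genes stand beside the 4 h counts of the other complexes. By library size alone 79 of the 81 nuclear members of all complexes were lower, where 15228 of 19150 genes passed, 2988 of them higher. Ndufa8 (chr2:36036326-36049406, minus strand, GRCm38), an accessory subunit of complex I, had 1655, 1736 and 1764 normalized counts in PBS. It had 1273, 1395 and 1308 at LPS 15 min, 1508, 1500 and 1581 at LPS 30 min and 906, 773 and 798 at LPS 4 h. All 4 h libraries were below all others, and Ndufa8 fell beyond 1.5-fold (log2 fold change -1.05, SE 0.057, adjusted p = 2.3e-08), the largest fall of the nuclear members in the fit. Ndufv3 (chr17:31520115-31531331, plus strand), an accessory subunit of the NADH-oxidizing module, had 986, 1015 and 938 in PBS, 713, 730.4 and 831 at 15 min, 870.1, 835 and 975 at 30 min and 680.3, 626 and 622 at 4 h. The 30 min libraries overlapped PBS. It was lower at each time at any difference in the fit, a call that was lost at 30 min without PBS replicate 2 (adjusted p = 0.055), and fell beyond 1.5-fold at 4 h (log2 fold change -0.85, SE 0.072, adjusted p = 4.5e-04). The log2 ratio of its normalized counts was smaller at 4 h (-0.61), and that of Atp5s larger (-1.08 against -0.64 in the fit). Ndufa6, an accessory subunit, had 1054, 1028 and 944 in PBS, 1169, 1082 and 1248 at 30 min and 670.1, 691 and 738 at 4 h (log2 fold change -0.61). It fell beyond 1.5-fold only in the step from 30 min to 4 h, which was tested by itself (log2 fold change -0.82, SE 0.072, adjusted p = 0.0017).

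The core subunits of complex I did not move as one. Ndufs1, the largest core subunit, had 1446, 1481 and 1307 normalized counts in PBS and 1286, 1514 and 1618 at LPS 4 h (log2 fold change 0.04, adjusted p = 0.41). Ndufv1, which binds NADH, had 1880, 2007 and 1837 in PBS, 2244, 2212 and 2178 at 30 min and 1415, 1429 and 1378 at 4 h, higher at 30 min (0.20) and lower at 4 h (log2 fold change -0.38, SE 0.048, adjusted p = 2.1e-07). Ndufs8 and Ndufs7, core subunits with iron-sulfur clusters, had -0.60 and -0.51 at 4 h. Ndufa9, an accessory subunit, had a log2 fold change of -0.03 at 4 h (adjusted p = 0.59).

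In complex II, 3 of 4 genes were lower at LPS 15 min, against 18.2% of all genes, and 1 at LPS 4 h in the fit. Sdha, the flavoprotein of succinate dehydrogenase, had 4358, 4294 and 4234 normalized counts in PBS, 3730, 3646 and 3696 at LPS 15 min and 4184, 4419 and 4275 at LPS 4 h. It was lower at 15 min (log2 fold change -0.19, SE 0.03, adjusted p = 2.0e-05) and overlapped PBS at 4 h, though by library size alone it was lower at 4 h (-0.69). Sdhb, the iron-sulfur subunit, was also lower at 15 min (-0.18) and at 4 h had -0.14 (adjusted p = 0.029). The call of Sdhb was lost at 15 min without PBS replicate 1 or LPS 15 min replicate 2 (adjusted p = 0.051 to 0.072) and at 4 h without PBS replicate 1 or LPS 4 h replicate 3 (adjusted p = 0.15 to 0.17). In complex III 5 of 8 genes were higher and 1 lower at 4 h in the fit, and 0 higher by library size alone. Uqcrfs1, the Rieske iron-sulfur protein, had 1227, 1262 and 1161 in PBS, 1425, 1288 and 1260 at 30 min and 1653, 1657 and 1650 at 4 h. Its 4 h libraries were above all others in the fit (log2 fold change 0.46, SE 0.053, adjusted p = 6.4e-08), and with library size alone the change was -0.24. Uqcrc1, a core protein, had -0.01 (adjusted p = 0.75). The small subunit Uqcr11 had 1297, 1301 and 1179 in PBS, 1486, 1416 and 1576 at 30 min and 985, 807 and 957 at 4 h, and fell beyond 1.5-fold from 30 min to 4 h (log2 fold change -0.75, SE 0.084, adjusted p = 0.026).

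In complex IV, 7 of 17 nuclear genes tested were higher and 1 lower at LPS 4 h in the fit, and 0 higher by library size alone. The lower gene was Cox7a2l (chr17:83501918-83517330, minus strand), a factor linked to supercomplexes of complexes III and IV, which were not measured here. It had 2023, 2106 and 2138 normalized counts in PBS, 2256, 2198 and 2308 at LPS 30 min and 1316, 1156 and 1055 at LPS 4 h. Its 4 h libraries lay below all others, a fall beyond 1.5-fold (log2 fold change -0.82, SE 0.055, adjusted p = 9.5e-05). Its close relative Cox7a2, a structural subunit, had 917, 1003 and 973 in PBS and 1207, 1130 and 1164 at 4 h and was higher in the fit (log2 fold change 0.28, SE 0.056, adjusted p = 1.6e-04), though lower by library size alone (-0.43). Cox5a, a subunit near the catalytic core, had 0.10 at 4 h (adjusted p = 0.068).

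Complex V held 6 higher and 9 lower genes of 17 at LPS 4 h in the fit, and 0 higher by library size alone. Atp5b, the catalytic beta subunit and the nuclear member with the highest TPM in PBS (1320 ± 50.6, SD, n = 3), had 11350, 12141 and 11441 normalized counts in PBS and 14347, 12090 and 13389 at 4 h. The lowest 4 h library lay below the highest PBS library, and the fit gave a small difference (log2 fold change 0.18, SE 0.023, adjusted p = 2.3e-07). With library size alone it was -0.52. Atp5f1, of the peripheral stalk, had 2280, 2251 and 2325 in PBS and 2905, 3076 and 2862 at 4 h (log2 fold change 0.39). Atp5c1, the rotating gamma subunit, and Atp5j, of the stalk, had -0.43 and -0.43. Atp5k, a membrane subunit, had 537, 463 and 378 in PBS and 342, 276 and 309 at 4 h (log2 fold change -0.61, SE 0.14, adjusted p = 4.6e-04). Atp5s, a coupling factor, had 255, 258 and 327 in PBS and 136, 122 and 139 at 4 h (log2 fold change -0.64, SE 0.13, adjusted p = 1.4e-04).

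Several subunits exist as pairs of genes used by different tissues. Cox8b (chr7:140898945-140900446, minus strand), the form of heart and skeletal muscle, had 50.8, 44.9 and 39.8 normalized counts in PBS, 34.9, 62.5 and 43.1 at LPS 15 min, 109.7, 117 and 144 at LPS 30 min and 109, 97.4 and 125 at LPS 4 h. The 30 min and 4 h libraries lay above all PBS and 15 min libraries. It was the 1 nuclear member beyond 1.5-fold at 30 min (log2 fold change 1.37, SE 0.21, adjusted p = 0.0038), against 3.8% of all genes higher, and the 1 that rose beyond it at 4 h (log2 fold change 1.14, SE 0.22, adjusted p = 0.0084). By library size alone, and in DESeq2, 0 nuclear members rose beyond 1.5-fold at 4 h, against 1919 and 3211 of 19150 genes. From 15 to 30 min it also rose beyond 1.5-fold (log2 fold change 1.32, SE 0.21, adjusted p = 0.0069), against 2.77% of all genes. That call was lost without LPS 15 min replicate 1 (adjusted p = 0.064) and in limma on normalized counts and on TPM (adjusted p = 0.051 to 0.18). As a share of the TPM of Cox8a plus Cox8b it was 3.88%, 3.56% and 3.26% in PBS, 7.29%, 7.54% and 8.88% at 30 min and 7.84%, 6.83% and 8.47% at 4 h. The other muscle forms of complex IV are Cox6a2 and Cox7a1. Cox6a2 had 16.7, 17.2 and 15.2 normalized counts in PBS, 25.8, 36.9 and 37.4 at 30 min and 6.8, 20.7 and 13.6 at 4 h, and passed any difference at 30 min (log2 fold change 1.03, SE 0.38, adjusted p = 0.036), but not without PBS replicate 1 or 2 or 3 or LPS 30 min replicate 2 or 3 (adjusted p = 0.063 to 0.11). Cox7a1 had 49.1, 50.2 and 54.2, 79.2, 71 and 71.8 and 59.5, 75.3 and 57.2 in the same groups and did not pass (log2 fold change 0.49, SE 0.20, adjusted p = 0.06 at 30 min).

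Skeletal muscle markers moved with these forms at 30 min. Their TPM summed over 12 genes spanned 53.6 to 75.7 (PBS), 47.6 to 54.5 (15 min), 315 to 339.7 (30 min) and 39.9 to 50 (4 h). In the fit 11 of 12 rose beyond 1.5-fold at 30 min, against 3.8% of all genes. Myh1, a fast myosin, was at 0.0511, 0 and 0.0202 TPM in PBS and 5.2, 5.07 and 5.19 at 30 min. At 4 h the sum was below every PBS library, but much of the PBS sum was 1 gene. Mylpf was at 23, 43.2 and 30.9 TPM in PBS and 5.21, 5.89 and 2.4 at 4 h. In the fit 8 of the 12 markers were higher than PBS beyond 1.5-fold at 4 h, against 19.1% of all genes, and Cox8b stayed above PBS. The count of markers was not repeated by library size alone. The part of muscle RNA in the Cox8b, Cox6a2 and Cox7a1 values was not tested.

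**Figure D4:**
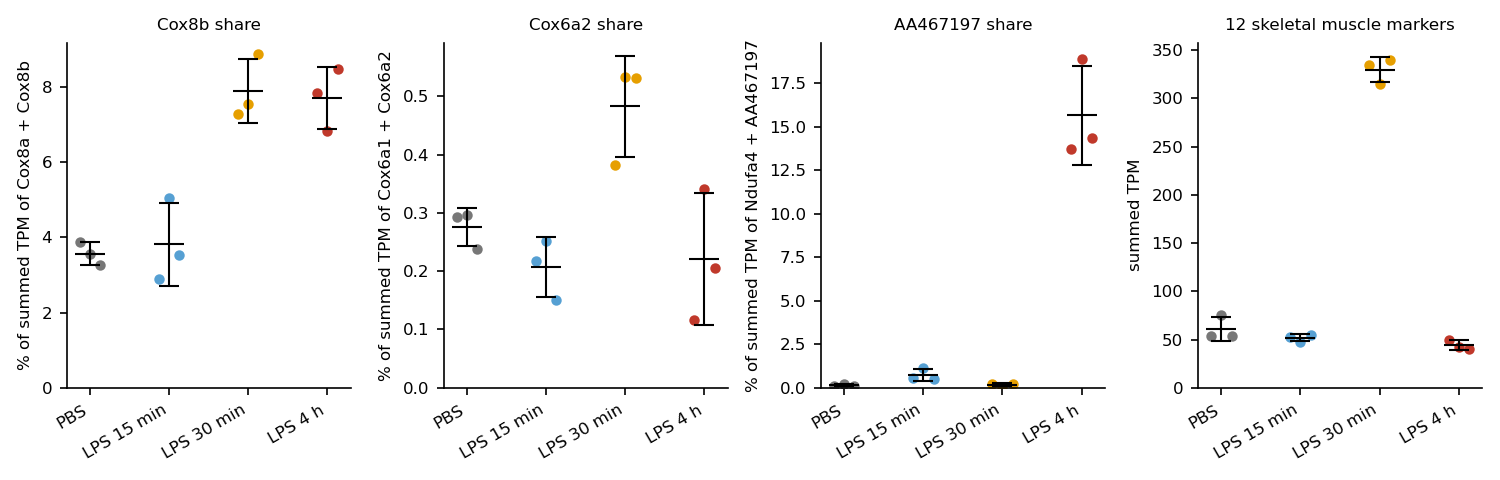
Share of Cox8b, Cox6a2 and AA467197 in the summed TPM with their partner gene (%), and the summed TPM of 12 skeletal muscle markers, by group; points are libraries, bars the mean ± SD (n = 3), and each panel has its own axis from 0. Cox8b is at 7.29% to 8.88% at LPS 30 min and 6.83% to 8.47% at 4 h, the muscle markers peak at 30 min, and AA467197 reaches 13.7% to 18.9% at LPS 4 h.

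The other pairs had no member beyond 1.5-fold. Cox4i2, the form of lung and of low oxygen, made up 9.25%, 9.03% and 9.61% of Cox4 TPM in PBS and 8.34%, 6.51% and 9.31% at 4 h, with overlap. Its gene did not pass (-0.10, adjusted p = 0.4), and the common form Cox4i1 had 0.10 at 4 h, and -0.60 by library size alone. Cox6b2, a form best known from testis, had 204, 228 and 178 normalized counts in PBS, 274, 256 and 273 at 30 min and 257, 295 and 312 at 4 h, above PBS at both times (log2 fold change 0.39, SE 0.13, adjusted p = 0.01 at 4 h). It did not pass at 4 h without PBS replicate 3 or LPS 4 h replicate 3 (adjusted p = 0.06 to 0.083). On the library size scale it was -0.32. Cox6b1, its common partner, had -0.09 (adjusted p = 0.27), Cox6a1 had 0.05, and Cox8a had 0.10, or -0.61 by library size alone. The 3 genes of the c ring of ATP synthase encode the same mature protein. Atp5g1 and Atp5g3 were higher at 4 h (0.19 and 0.23), and lower by library size alone (-0.51 and -0.47). Atp5g2 had -0.16 (adjusted p = 0.43), but a copy, Gm10175, matches it over 645 bases at 100% identity and took 607% of its count. Their sum was 2037, 1954 and 1951 normalized counts in PBS and 1420, 1561 and 1433 at 4 h, with all 4 h libraries below PBS. Likewise Ndufb4, at -0.51 alone, shares its sequence with Ndufb4c, and their sum went from 765, 809 and 803 to 604, 571 and 541.

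Beside the pairs of members, a paralog outside the naming rule changed by far more. AA467197, the mouse gene of the Ndufa4-like protein C15orf48/NMES1, known as induced in inflamed cells, had 3.33, 5.24 and 2.54 normalized counts in PBS. It had 12.6, 26.1 and 11.6 at LPS 15 min, 5.72, 1.89 and 6.89 at LPS 30 min and 367, 522 and 408 at LPS 4 h. Every 4 h library was far above every other (log2 fold change 7.09, SE 0.34, adjusted p = 3.2e-14 beyond 1.5-fold), and the 15 min libraries were above PBS too (2.47). Ndufa4 itself had 1682, 1771 and 1765 in PBS and 1672, 1618 and 1757 at 4 h (log2 fold change -0.09, SE 0.044, adjusted p = 0.084). AA467197 made up 0.128%, 0.207% and 0.104% of the summed TPM of both genes in PBS and 13.7%, 18.9% and 14.4% at 4 h. Ndufa4l2, the paralog known for hypoxia and for mural cells, made up 29.5%, 29.5% and 31.6% of its pair in PBS and 26.7%, 26.5% and 23.7% at 4 h, and was lower at 4 h (log2 fold change -0.40, SE 0.055, adjusted p = 9.5e-07). Neutrophil markers were at 12.2 to 16.7 TPM in PBS, 4.55 to 8.57 at 15 min, 16.1 to 24.8 at 30 min and 578 to 601 at 4 h. They rose with AA467197 at 4 h but not at 15 min, and their part was not tested.

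Genes that assemble, transcribe or regulate OXPHOS were read as lists. The lists were chosen with earlier results known, and are read by their counts beside the same background. Unless a scale is named, their fold changes and calls are from the fit. There the median of all genes at 4 h was -0.01, against -0.71 by library size alone, so the size of a rise depends on the scale. Of 48 assembly factors, 4 rose and 11 fell beyond 1.5-fold at LPS 4 h, against 19.1% and 13.9% of all genes (median -0.30). Cox18, which inserts mt-Co2 into the membrane, rose (log2 fold change 2.06, SE 0.11, adjusted p = 9.1e-12). Coa6 and Coa7, which help build complex IV, fell (-1.46 and -1.39), as did Uqcc3 (-1.20), Uqcc2 (-0.92) and Bcs1l (-0.92) of complex III assembly, Atpaf1 (-1.0) of ATP synthase assembly, and Coa4 of complex IV assembly (-0.91). The call of Atpaf1 was lost without PBS replicate 1 or 2 or LPS 4 h replicate 3 (adjusted p = 0.059 to 0.14), that of Bcs1l without LPS 4 h replicate 2 or 3 (adjusted p = 0.085 to 0.11), and that of Coa4 in 8 of the 12 fits that left out 1 library. At 15 and 30 min 0 of the 48 passed 1.5-fold.

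Of 33 genes for mtDNA transcription, replication and RNA handling, 2 rose and 4 fell beyond 1.5-fold at 4 h, against 19.1% and 13.9% of all genes, and at any difference 13 were higher and 13 lower, against 34.9% and 33.7%. Pnpt1, the polynucleotide phosphorylase that degrades mitochondrial RNA, rose (log2 fold change 2.43, SE 0.059, adjusted p = 4.6e-19). Tbrg4, a FASTK-family RNA-binding protein, also rose (1.09). Mterf4, which binds the mitochondrial large ribosomal RNA and helps build the ribosome, fell (log2 fold change -1.86, SE 0.098, adjusted p = 9.7e-12), as did Mterf2 (-1.05), the primase Primpol (-1.10) and the nuclease Mgme1 (-0.87), whose call was lost without PBS replicate 1 or LPS 4 h replicate 1 (adjusted p = 0.08 to 0.24). Polrmt, the RNA polymerase, and Tfam, the packaging and initiation factor, went apart: Polrmt -0.63 (adjusted p = 3.6e-07 at any difference) and Tfam 0.47 (adjusted p = 1.1e-06), which turned to -0.24 by library size alone. Of 78 mitochondrial ribosomal protein genes 4 rose and 4 fell beyond 1.5-fold, against the same 19.1% and 13.9% (median -0.11).

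Of 17 regulators of nuclear OXPHOS genes 4 rose and 1 fell beyond 1.5-fold at 4 h, against 19.1% and 13.9% of all genes. Nfe2l2, the oxidative stress factor, rose most (log2 fold change 2.74, SE 0.045, adjusted p = 1.5e-22). Pprc1, a growth-regulated coactivator, and Gabpb1, a subunit of the GA-binding protein, rose by 2.36 and 2.02 on the log2 scale, and the nuclear receptor Esrrg by 0.92. Ppargc1b, a coactivator of mitochondrial biogenesis, fell (log2 fold change -1.19, SE 0.27, adjusted p = 0.014). The call of Ppargc1b was lost without LPS 4 h replicate 3 (adjusted p = 0.079) and that of Esrrg without PBS replicate 1 or 2 or LPS 4 h replicate 2 (adjusted p = 0.062 to 0.19). Ppargc1a, the better known relative of Ppargc1b, had 0.16 (adjusted p = 0.21 at any difference), Nrf1 0.12 (adjusted p = 0.098), Gabpa 0.22 (adjusted p = 0.0021, and -0.49 by library size alone) and Esrra -0.75 (adjusted p = 1.4e-04). Of 18 TCA cycle enzymes only Dlst passed 1.5-fold in the fit (0.77). Of 23 electron and nucleotide carriers, Cycs, the electron carrier cytochrome c, rose (log2 fold change 1.13, SE 0.055, adjusted p = 6.7e-10) and Coq9, of ubiquinone synthesis, fell (-0.89).

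**Figure D5:**
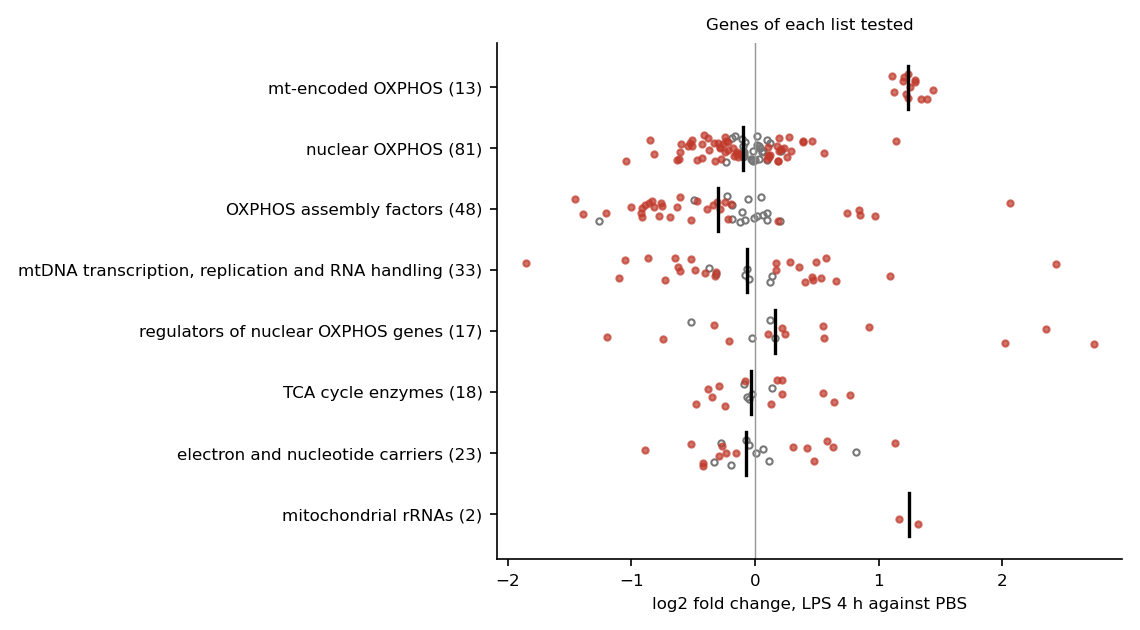
Log2 fold change at LPS 4 h against PBS of each gene tested in 8 gene lists (number of genes in brackets); red points passed any difference, open points did not, and bars are medians. The mt-encoded genes and both mitochondrial ribosomal RNAs lie above 1, and all other lists have medians between -0.30 and 0.16.

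Nuclear OXPHOS genes are known to be bound by NRF1, and a simple form of its site is common in their promoters. In RefSeq windows of 250 bases before to 50 after the start (GRCm38.p6), the core GCGCA and GCGC with any 1 base between them was found on either strand for 17 of the 68 nuclear members with a window (25%), against 1402 of 27025 genes (5.19%). The ETS-type letters CCGGAAGT, of GA-binding protein, searched the same way, were found for 5 of 68 (7.35%) against 4.31% of all genes. Of the members with the NRF1-type letters, 11 were among the 33 that were lower at 4 h, 1 among the 12 that were higher and 5 among the 22 that did not pass. The remaining 1 member with a window was below the filter on low counts. The match describes letters and was not tested as a site. It is shown, in capitals with 10 bases on each side, for Ndufa8 (chr2:36049349-36049378, minus strand) and Atp5k (chr5:108434430-108434459, minus strand), both lower at 4 h, and for Sdha (chr13:74350276-74350305, minus strand) and Ndufa11 (chr17:56717692-56717721, plus strand):
Ndufa8: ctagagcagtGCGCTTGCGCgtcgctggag
Atp5k: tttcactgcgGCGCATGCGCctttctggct
Sdha: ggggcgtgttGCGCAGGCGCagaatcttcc
Ndufa11: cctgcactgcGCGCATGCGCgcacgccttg
Ndufa8 holds the letters as their reverse complement. The genes shown fell beyond 1.5-fold (Ndufa8), were lower at any difference (Atp5k and Ndufa11) or overlapped PBS at 4 h (Sdha), and the letters occur in all of them.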

How the data were processed

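RNA of 12 pooled samples of cerebral vessels was sequenced after oligo-dT primed SMART-Seq v4 amplification, which keeps no strand. The authors ran Salmon 1.2.1 and deposited, per transcript, estimated counts (fragments assigned, not normalized) and TPM (scaled by effective length and to the same total in each library). The gene table of the authors holds a normalized signal: counts divided by DESeq2 size factors and average transcript length factors on GRCm38.p6. Its 12 columns each followed the library they were mapped to.

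Of 140948 transcripts 139852 joined GENCODE M21; the rest held 0.482% to 0.85% of fragments. Estimated counts were summed to 54119 genes, rounded, filtered with filterByExpr (minimum count 10, total 15, share 0.7) to 19150 genes, scaled by TMM and fitted in edgeR 4.0.16 under R 4.3.3 (glmQLFit, 12 libraries). Calls beyond 1.5-fold used glmTreat with a null of 0.58 on the log2 scale, and calls of any difference glmQLFTest, at a Benjamini-Hochberg adjusted p below 0.05. The SE is the log2 fold change divided by the root of F. Medians of members include only those that passed the filter. Overlap of groups was read on the TMM scale for counts of genes. The fit was tested on simulated data. Copies of members were matched with BLAST 2.17.0 at 95% identity over 50% of their length. Depth was 18309200 to 25882000 fragments.

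The members and gene lists were chosen with earlier results of these data known. Named genes were all mt-encoded genes, paralog pairs, core subunits, members past 1.5-fold, the 5 largest rises and falls at 4 h, the highest and lowest TPM in PBS, and list genes past 1.5-fold, at most 8 a list. Ndufa6, Ndufs7, Ndufs8, Uqcr11, Atp5c1, Atp5j, Atp5f1, Ndufb4 and Ndufa11 were added after their values were seen. The result of 1 member is not reported here. Alternatives were DESeq2 1.42.0, limma 3.58.1 and other scalings, filters and samples; adding the counts of gene copies was chosen after seeing the data.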

Additional observations from a re-analysis of the deposited data

Results flagged for a closer look

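A difference between times after LPS was singled out where the step itself passed 1.5-fold in edgeR (glmTreat, Benjamini-Hochberg adjusted p below 0.05). From LPS 15 min to 30 min this was Cox8b, with a log2 fold change of 1.32. From LPS 30 min to 4 h it was, among nuclear genes, Uqcr11 at -0.75, Ndufa6 at -0.82, Cox7a2l at -0.94 and Ndufa8 at -0.88. Among mt-encoded genes the same step gave mt-Nd1 0.89, mt-Nd2 1.00, mt-Co1 0.78, mt-Atp8 0.73, mt-Co3 0.66, mt-Nd4 0.87, mt-Nd5 1.25, mt-Nd6 1.35, mt-Cytb 0.82 and mt-Nd4l 0.86. These values depend on the scale: by library size alone 2 mt-encoded genes passed 1.5-fold in this step, and on TPM plus 1 the count was 1. With groups of 3, single libraries were not tested as outliers.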

How the results depend on the processing

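Counts of members called that moved by over 1.5 times are given by setting, at any difference unless 1.5-fold is named; the cause was not tested. Under DESeq2, the count was for LPS 15 min against PBS 0 nuclear higher, and for LPS 4 h against PBS 0 nuclear higher beyond 1.5-fold. Under RLE factors, the count was for LPS 15 min against PBS 1 nuclear higher. Under library size only, the count was for LPS 15 min against PBS 0 nuclear higher, and for LPS 30 min against PBS 4 nuclear higher, 20 nuclear lower, 1 mt-encoded lower, and for LPS 4 h against PBS 0 nuclear higher beyond 1.5-fold, 54 nuclear lower beyond 1.5-fold, 0 nuclear higher, 79 nuclear lower, 3 mt-encoded higher beyond 1.5-fold, and for LPS 30 min against LPS 15 min 22 nuclear higher, and for LPS 4 h against LPS 30 min 0 nuclear higher beyond 1.5-fold, 50 nuclear lower beyond 1.5-fold, 1 nuclear higher, 80 nuclear lower, 2 mt-encoded higher beyond 1.5-fold. Under transcript length offset, the count was for LPS 15 min against PBS 1 nuclear higher, 15 nuclear lower, and for LPS 4 h against PBS 2 nuclear higher beyond 1.5-fold, and for LPS 30 min against LPS 15 min 1 mt-encoded higher beyond 1.5-fold. Under protein-coding transcripts only, the count was for LPS 15 min against PBS 0 nuclear higher, 1 mt-encoded higher, and for LPS 4 h against LPS 30 min 0 nuclear higher beyond 1.5-fold. Under limma, normalized counts plus 1, the count was for LPS 15 min against PBS 1 nuclear higher, and for LPS 4 h against PBS 2 nuclear higher beyond 1.5-fold, and for LPS 30 min against LPS 15 min 0 nuclear higher beyond 1.5-fold, 1 mt-encoded higher beyond 1.5-fold, and for LPS 4 h against LPS 30 min 2 nuclear lower beyond 1.5-fold. Under limma, normalized counts plus 10, the count was for LPS 15 min against PBS 1 nuclear higher, and for LPS 30 min against PBS 0 nuclear higher beyond 1.5-fold, and for LPS 4 h against PBS 2 nuclear higher beyond 1.5-fold, and for LPS 30 min against LPS 15 min 0 nuclear higher beyond 1.5-fold, 1 mt-encoded higher beyond 1.5-fold, and for LPS 4 h against LPS 30 min 2 nuclear lower beyond 1.5-fold. Under limma, TPM plus 1, the count was for LPS 15 min against PBS 1 nuclear higher, and for LPS 30 min against PBS 0 nuclear higher beyond 1.5-fold, 2 nuclear higher, 40 nuclear lower, 2 mt-encoded lower, and for LPS 4 h against PBS 0 nuclear higher beyond 1.5-fold, 62 nuclear lower beyond 1.5-fold, 0 nuclear higher, 79 nuclear lower, 0 mt-encoded higher beyond 1.5-fold, and for LPS 30 min against LPS 15 min 0 nuclear higher beyond 1.5-fold, 5 nuclear higher, 18 nuclear lower, and for LPS 4 h against LPS 30 min 0 nuclear higher beyond 1.5-fold, 46 nuclear lower beyond 1.5-fold, 1 nuclear higher, 80 nuclear lower, 1 mt-encoded higher beyond 1.5-fold. Under limma, TPM plus 0.1, the count was for LPS 15 min against PBS 1 nuclear higher, and for LPS 30 min against PBS 0 nuclear higher beyond 1.5-fold, 1 nuclear higher, 40 nuclear lower, 2 mt-encoded lower, and for LPS 4 h against PBS 0 nuclear higher beyond 1.5-fold, 63 nuclear lower beyond 1.5-fold, 0 nuclear higher, 79 nuclear lower, 0 mt-encoded higher beyond 1.5-fold, and for LPS 30 min against LPS 15 min 0 nuclear higher beyond 1.5-fold, 5 nuclear higher, 18 nuclear lower, and for LPS 4 h against LPS 30 min 0 nuclear higher beyond 1.5-fold, 49 nuclear lower beyond 1.5-fold, 1 nuclear higher, 80 nuclear lower, 1 mt-encoded higher beyond 1.5-fold. Under TMM and library size from the other genes, the count was for LPS 15 min against PBS 1 mt-encoded higher. Under no filter on low counts, the count was for LPS 15 min against PBS 1 mt-encoded higher, and for LPS 4 h against LPS 30 min 0 nuclear higher beyond 1.5-fold. Under only the groups compared, the count was for LPS 15 min against PBS 1 mt-encoded higher, and for LPS 30 min against LPS 15 min 2 nuclear higher beyond 1.5-fold. Under counts of nuclear copies added to their mt- gene, the count was for LPS 15 min against PBS 1 mt-encoded higher. The difference in log2 ratio between LPS 30 min and PBS was 0.28 as a mean of log2 TPM over members. For LPS 4 h against LPS 30 min, 14626 of 19150 genes passed any difference by library size, 3188 of them higher. On TPM plus 1, 13791 passed, 2796 of them higher, and on TPM plus 0.1, 13970 passed, 2789 of them higher.

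The sign of the log2 fold change turned for these genes: under limma, TPM plus 1, for LPS 30 min against PBS mt-Nd5 -0.16, mt-Nd6 -0.17, Uqcrfs1 -0.16, Ndufa4 -0.14 and for LPS 4 h against PBS Uqcrfs1 -0.43, Atp5b -0.69, Cox4i1 -0.76, Cox6b2 -0.36, Cox7a2 -0.60, Cox8a -0.76, Atp5g3 -0.64, Atp5g1 -0.53, Tfam -0.66, Gabpa -0.56. Under limma, TPM plus 0.1, for LPS 30 min against PBS mt-Nd5 -0.16, mt-Nd6 -0.17, Uqcrfs1 -0.16, Ndufa4 -0.14 and for LPS 4 h against PBS Uqcrfs1 -0.44, Atp5b -0.69, Cox4i1 -0.76, Cox6b2 -0.37, Cox7a2 -0.60, Cox8a -0.76, Atp5g3 -0.64, Atp5g1 -0.53, Tfam -0.69, Gabpa -0.60. Under library size only, for LPS 30 min against PBS mt-Nd6 -0.081 and for LPS 4 h against PBS Uqcrfs1 -0.24, Atp5b -0.52, Cox4i1 -0.60, Cox6b2 -0.32, Cox7a2 -0.43, Cox8a -0.61, Atp5g3 -0.47, Atp5g1 -0.51, Tfam -0.24, Gabpa -0.49. These scales count shares of all RNA, and the median of all genes and the number of genes called moved with them as given above.

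Leaving out each library in turn gave, for LPS 15 min against PBS, 0 to 3 nuclear higher, 16 to 28 nuclear lower, 0 to 1 mt-encoded higher, 6 to 8 mt-encoded lower. For LPS 30 min against PBS, 1 nuclear higher beyond 1.5-fold, 22 to 40 nuclear higher, 1 to 4 nuclear lower, 11 to 13 mt-encoded higher, 0 mt-encoded lower. For LPS 4 h against PBS, 1 nuclear higher beyond 1.5-fold, 3 to 4 nuclear lower beyond 1.5-fold, 13 to 20 nuclear higher, 32 to 38 nuclear lower, 13 mt-encoded higher beyond 1.5-fold, 13 mt-encoded higher. For LPS 30 min against LPS 15 min, 0 to 2 nuclear higher beyond 1.5-fold, 57 to 66 nuclear higher, 0 nuclear lower, 0 mt-encoded higher beyond 1.5-fold, 12 to 13 mt-encoded higher. For LPS 4 h against LPS 30 min, 1 nuclear higher beyond 1.5-fold, 3 to 4 nuclear lower beyond 1.5-fold, 5 to 7 nuclear higher, 44 to 51 nuclear lower, 10 to 11 mt-encoded higher beyond 1.5-fold, 12 to 13 mt-encoded higher. With all libraries, 12498 of 19150 genes passed any difference in this last step, 6114 of them higher. The difference in log2 ratio of mt-encoded to nuclear TPM spanned -0.02 to 0.05 for LPS 15 min minus PBS, 0.34 to 0.41 for LPS 30 min minus PBS, 1.28 to 1.36 for LPS 4 h minus PBS.

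The replicate numbers were not taken as a pairing: the deviations of same-numbered libraries correlated at -0.049 to 0.068 over 18 pairs, with 0 above 0.1, and 8 of 12 libraries correlated best on average with those of their own number. With a replicate block the counts at LPS 4 h against PBS were 20 nuclear higher and 35 nuclear lower at any difference, and 13 mt-encoded higher beyond 1.5-fold. From LPS 30 min to 4 h they were 47 nuclear lower at any difference and 11 mt-encoded higher beyond 1.5-fold, within 1.5 times of the counts without it (48 and 10). Of all 19150 genes under the block, 13011 passed any difference at LPS 4 h against PBS and 12374 in the step from 30 min. Of these, 6627 and 6065 were higher. Beyond 1.5-fold 6277 and 5465 passed, 3634 and 3208 of them higher. Over all comparisons of a named gene with an alternative, the direction and the side of the threshold at any difference were kept in 5618, a call was lost in 231 and gained in 193, the sign of a call turned in 39, and the sign of a value that passed in neither turned in 173. The medians over members moved by less than the spread between replicates in 243 comparisons and by more in 27.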
